A study of Rattus norvegicus with 11 samples.

Results

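The transcripts of Irf7 (ENSRNOG00000017414) and Usp18 (ENSRNOG00000037198) were followed in the corpora quadrigemina of 11 male rats. They are 2 of the 32883 Ensembl genes counted, and they were chosen from results of the same counts, as a pair of interferon response genes that were high in KM rats. Their levels and strain differences are therefore given as a description without a test. The KM group held 3 rats of the Krushinsky-Molodkina strain, labelled as prone to audiogenic epilepsy (AE), the convulsive seizures that a loud sound evokes. The “0” group held 4 rats, titled O and labelled as less prone to AE, of a strain that was selected against seizures from hybrids of KM and Wistar rats, with backcrosses to KM early in the selection. The W group held 4 outbred Wistar rats labelled as wild type. The labels give Wistar as the strain of all 3 groups. All rats were 4-month-old males, and per the study's methods all groups met the test sound 4 days before the tissue (inferior and superior colliculi) was taken, so that sound exposure is shared. KM rats had been tested once before to verify seizures, “0” rats had been tested more often, and W rats that ran wild had been left out.

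Type I interferons are antiviral cytokines that act through a receptor of 2 chains, Ifnar1 and Ifnar2, the kinases Jak1 and Tyk2, and a transcription factor complex that holds Stat2 and Irf9. This complex binds the interferon-stimulated response element (ISRE) in the promoters of its target genes. Irf7 is a transcription factor that is itself induced by interferon and then drives further transcription of interferon genes, a positive feedback. Usp18 is also induced by interferon and acts in the opposite sense. It removes the ubiquitin-like protein Isg15 from its targets and binds Ifnar2, where it blocks signalling. In the brain such genes are expressed at a low level by microglia, endothelium, astrocytes and neurons without infection.

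The ISRE core was searched in promoters because both genes belong to the interferon response. RefSeq promoter sequences of the GRCr8 build, which is not the build of the counts, cover 250 bases before and 50 bases from the start of a gene. The letters GAAA, any 2 bases and GAAA, which read TTTC, any 2 bases and TTTC on the other strand, were found in the promoter of Irf7. Of the 6 other genes listed further on as most like Irf7 or Usp18 across rats, 2 hold them, Oas1a and Ifit3, and these are shown because they hold the match. The promoters of Stat2, RT1-T24-3, Stab2 and Kif15 do not hold these letters. Usp18 had no entry among these sequences. Each sequence reads 5′ to 3′ along the strand of its gene, and capitals mark the match.
Irf7: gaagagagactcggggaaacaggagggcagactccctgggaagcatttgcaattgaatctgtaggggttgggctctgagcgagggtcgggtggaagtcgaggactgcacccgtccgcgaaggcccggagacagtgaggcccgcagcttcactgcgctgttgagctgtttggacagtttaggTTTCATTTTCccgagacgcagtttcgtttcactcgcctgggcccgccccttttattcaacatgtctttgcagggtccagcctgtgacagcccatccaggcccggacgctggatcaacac
Oas1a: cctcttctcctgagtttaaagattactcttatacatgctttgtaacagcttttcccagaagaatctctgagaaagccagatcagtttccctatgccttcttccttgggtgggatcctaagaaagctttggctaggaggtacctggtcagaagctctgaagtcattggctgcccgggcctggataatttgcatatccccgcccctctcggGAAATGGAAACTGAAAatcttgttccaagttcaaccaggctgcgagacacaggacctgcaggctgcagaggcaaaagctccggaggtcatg
Ifit3: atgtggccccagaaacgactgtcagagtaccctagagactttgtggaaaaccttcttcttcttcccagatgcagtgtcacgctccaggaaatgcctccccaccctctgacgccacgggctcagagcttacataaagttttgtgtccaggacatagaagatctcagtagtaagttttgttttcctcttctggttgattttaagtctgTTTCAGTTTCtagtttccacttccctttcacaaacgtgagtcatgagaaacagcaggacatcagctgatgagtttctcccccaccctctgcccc

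The Irf7 window lies at chr1:205799974-205800273 on the minus strand, and its match spans bases −69 to −60 from the start. The Oas1a window lies at chr12:41330216-41330515 on the plus strand and holds 2 overlapping matches, at −41 to −32 and −35 to −26. The Ifit3 window lies at chr1:241527076-241527375 on the plus strand, with its match at −44 to −35. Of all 33469 promoters of this length, 3.92% hold the letters. Of the 40 other interferon genes examined further on, 33 have a promoter in the table and 17 of those (51.5%) hold them, among them Bst2, Eif2ak2, Rsad2, Tap1 and Trim21. The gamma-activated site, searched as TTCNNNGAA, which reads the same on both strands, was not found in the Irf7 window. It is in 8.87% of all promoters and in 9 of the 33. A match of letters is a description and does not show that a factor binds there.

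Both genes were highest in KM rats and lowest, or level with the lower W rats, in “0” rats. Levels are given in CPM (read counts relative to a common library size, scaled with the TMM factors of edgeR), which is not corrected for transcript length, so that the values of the 2 genes are compared between rats and not with each other. Irf7 had 19.3, 25 and 13.7 CPM in KM 1, KM 2 and KM 3, from 235, 294 and 232 reads. In “0” 1 to “0” 4 it had 4.90, 6.37, 4.74 and 4.75 CPM, from 62, 67, 43 and 73 reads. In W 1 to W 4 it had 5.09, 7.21, 17.1 and 8.56 CPM, from 64, 94, 198 and 91 reads. All KM rats were above all “0” rats, whereas W 3 lay between KM 3 and KM 1 and the other W rats were below every KM rat.

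Usp18 had 8.39, 6.97 and 6.09 CPM in KM 1, KM 2 and KM 3, from 102, 82 and 103 reads. In “0” 1 to “0” 4 it had 2.69, 3.04, 2.76 and 2.67 CPM, from 34, 32, 25 and 41 reads. In W 1 to W 4 it had 1.91, 2.91, 5.86 and 3.01 CPM, from 24, 38, 68 and 32 reads. The KM rats were again above all “0” rats. They were also above all W rats, but W 3 and KM 3 differed in CPM by less than their counting error. The 68 reads of W 3 have an exact Poisson 95% interval of 52.8 to 86.2 reads and the 103 of KM 3 one of 84.1 to 125. Their libraries differ in size, with 11861682 and 15140180 reads on genes, so these intervals are not compared with each other. Each is wider in proportion than the gap between 5.86 and 6.09 CPM. The lowest count, the 24 reads of W 1, has an interval of 15.4 to 35.7 reads. Libraries held 10545964 to 15140180 reads on genes, so that 3 counts, taken as the floor, equal 0.177 to 0.331 CPM. These intervals and this floor cover counting error only.

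**Figure D1:**
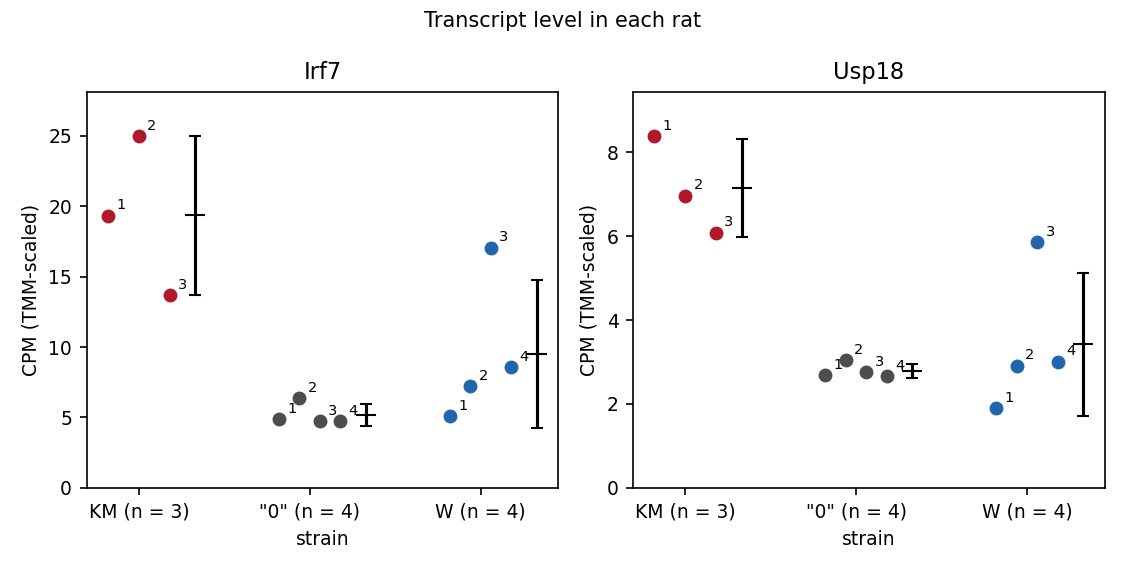
Level of Irf7 (left) and Usp18 (right) in CPM on a linear axis from 0, for each rat of the KM, “0” and W strains, with the rat's number beside its point and the mean ± SD of the strain as a bar to the right. The KM rats lie above the “0” rats in both panels, the “0” rats lie close together, and W 3 stands above the other W rats at 17.1 CPM for Irf7 and 5.86 CPM for Usp18.

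The mean of Irf7 over the 3 KM rats was 19.3 ± 5.64 CPM (SD), that over the 4 W rats 9.48 ± 5.26 CPM and that over the 4 “0” rats 5.19 ± 0.789 CPM. For Usp18 the same means were 7.15 ± 1.16 CPM for KM, 3.42 ± 1.70 CPM for W and 2.79 ± 0.173 CPM for “0” rats. The order of the means was thus KM, W and “0” for both. “0” and W rats overlapped for both genes, and for both the difference of their means was smaller than the SD of the W rats. The mean of Irf7 in KM rats was 3.73 times that in “0” rats and 2.04 times that in W rats, and that of Usp18 was 2.56 times and 2.09 times. On the log2 scale, the quasi-likelihood fits of edgeR put Irf7 at 1.90 ± 0.25 (SE) in KM vs “0” and at 1.03 ± 0.39 in KM vs W, and Usp18 at 1.36 ± 0.23 and 1.06 ± 0.36. From W to “0” rats the log2-fold change was −0.87 (standard error 0.34) for Irf7 and −0.30 (standard error 0.33) for Usp18. The KM rats enter both the KM vs W and the KM vs “0” values, and the W and “0” rats likewise enter 2 comparisons each.

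As a ratio of the highest to the lowest rat, the spread within a strain was widest in W rats, while the SD of Irf7 was slightly larger in KM rats. The highest W rat had 3.35 times the Irf7 and 3.07 times the Usp18 of the lowest, against 1.82 and 1.38 times in KM rats and 1.34 and 1.14 times in “0” rats. W rats are outbred, and the part of this in their spread was not tested. Without W 3 the log2-fold change of KM vs W was 1.47 for Irf7 and 1.44 for Usp18. Without W 3, “0” vs W became −0.43 for Irf7 and turned to 0.09 for Usp18. Without W 1, Usp18 in “0” vs W was −0.50.

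Across rats the 2 genes moved together. Over all 11 rats the log2 CPM of Irf7 and Usp18 had a Pearson's r of 0.943 and a Spearman's rho of 0.873. The strains differ in both genes, and a correlation over all rats holds that difference. After the strain mean was subtracted from each rat, r was 0.912 and rho 0.827, and the deviations of the 2 genes had the same sign in 10 of 11 rats. KM 2 was the exception, with the highest Irf7 of all rats and a Usp18 level 0.02 below the KM mean on the log2 scale. W 3 was 0.98 above and W 1 was 0.73 below the W mean in Irf7, and 0.86 above and 0.68 below it in Usp18, also as log2 differences. Without these 2 rats the r of the deviations fell to 0.587 over 9 rats, so that much of the agreement within strains rests on them. Leaving out KM 2 and KM 1, the rats farthest from the median of Irf7, gave an r of 0.913 for the levels. As the pair was chosen from these values, none of these coefficients carries a p.

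**Figure D2:**
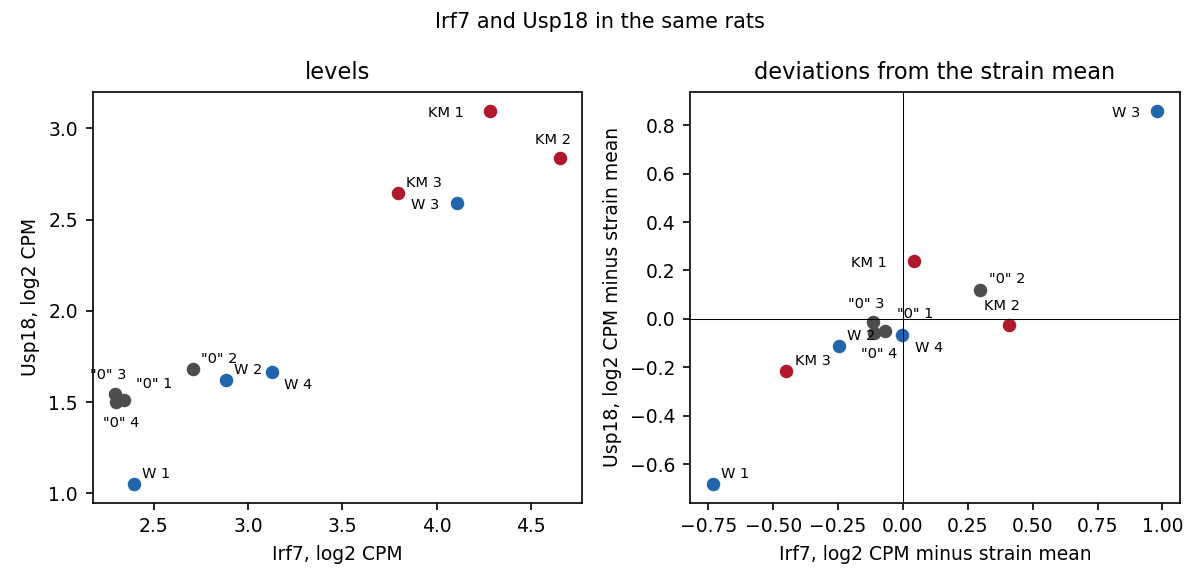
Usp18 against Irf7 in each of the 11 rats, as log2 CPM (left) and as the deviation of log2 CPM from the mean of the rat's strain (right). On the left W 3 lies among the KM rats and W 1 has the lowest Usp18. On the right W 3 and W 1 are at the 2 ends, and KM 2 is the only rat with deviations of opposite sign.

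The proportion of the 2 transcripts was lowest in “0” rats. For each Usp18 read there were 1.82, 2.09, 1.72 and 1.78 Irf7 reads in the “0” rats, a mean of 1.85 ± 0.165 (SD, n = 4). The W rats had 2.67, 2.47, 2.91 and 2.84, a mean of 2.72 ± 0.196 (SD, n = 4), and all 4 lay above all “0” rats. The KM rats had 2.30, 3.59 and 2.25, a mean of 2.71 ± 0.755 (SD, n = 3), with KM 1 and KM 3 below every W rat and KM 2 above. W 3 thus had the Irf7 to Usp18 proportion of the other W rats although its levels of both genes were near those of KM rats. Single ratios are loose at these counts, with a Wilson 95% interval of 1.06 to 2.80 in “0” 3 and of 2.21 to 3.83 in W 3. These ratios come from the same reads as the levels and were not tested.

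The genes with the pattern most like that of Irf7 over the 11 rats, by Pearson's r of log2 CPM, were Oas1a (r = 0.944), Usp18 (r = 0.943), Stat2 (r = 0.909), the class I-like histocompatibility gene RT1-T24-3 (r = 0.886) and the kinesin gene Kif15 (r = 0.876). Those most like Usp18 were Irf7, the scavenger receptor gene Stab2 (r = 0.922), RT1-T24-3 (r = 0.916), Stat2 (r = 0.910) and Ifit3 (r = 0.905). Each list of 5 was also the top 5 among all 13693 other genes with a mean of at least 1 CPM, of which 99% had an r under 0.653 with Irf7 and under 0.694 with Usp18. Oas1a makes an enzyme of the antiviral 2′-5′ oligoadenylate system, and Stat2 is the interferon-specific subunit of the complex that binds the ISRE. In deviations from the strain means, Usp18 ranked 1st for Irf7 among the 13693 genes and Irf7 ranked 2nd for Usp18, while Kif15 ranked 89th for Irf7 (r = 0.652). Kif15 was low, at 2.23 ± 1.17 CPM (mean ± SD over the 3 KM rats), 0.406 ± 0.213 CPM (4 “0” rats) and 0.668 ± 0.494 CPM (4 W rats). In the same order Stab2 averaged 4.53 ± 1.16, 1.86 ± 0.561 and 2.01 ± 1.13 CPM, and RT1-T24-3 averaged 13.4 ± 1.95, 5.71 ± 1.10 and 8.10 ± 5.16 CPM. These coefficients describe 11 libraries of 3 strains and carry no p.

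The other interferon genes were taken from lists of 156 symbols, of which 42, Irf7 and Usp18 included, could be matched to an identifier. Symbols came from the study's supplementary table of genes with a difference between KM and W or between KM and “0” rats. The 40 other genes are thus those that differed in these same libraries, and their counts in the 2 KM comparisons were fixed in large part by that choice. No interferon gene, and neither Isg15, Irf3, Ifnar1 nor Ifnar2, was among the matched symbols, and these are not analysed here. Genes were counted at an unadjusted p under 0.05 in the quasi-likelihood F-test of edgeR, the threshold of the study.

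In KM vs W rats 30 of the 40 genes were called, 27 of them higher in KM, beside 10.9% of all 13721 genes tested (5.58% higher and 5.33% lower). The median log2-fold change of the list was 0.56, against 0.01 over all genes. The rats of the 2 strains did not overlap for 23 genes that were higher and 3 that were lower, beside 5.40% and 6.26% of all genes. In KM vs “0” rats 39 genes were tested and 19 were higher, beside 3.65% of 13686 genes (2.37% higher and 1.29% lower), with a median of 0.52 against 0.01. None was lower, also with DESeq2, which called 16 higher (the share of all genes in that fit is not given). Here 15 genes did not overlap, all of them higher, beside 2.37% of all genes in that direction and 2.21% in the other. Because of the choice of symbols, these counts are not independent support.

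“0” and W rats were not compared in the choice of symbols, although the rats of both entered it. Of 39 genes tested, 2 were higher and 4 lower in “0” rats, beside 6.69% of 13630 genes (3.26% higher and 3.43% lower), and 2 higher and 1 lower did not overlap, beside 2.33% and 2.03%. The median log2-fold change was 0.04, while Irf7 was at −0.87. In the pairwise edgeR fits with all rats and no block, no gene of the list had a Benjamini-Hochberg adjusted p under 0.05, a level reached by 0.0656% of all genes when KM and W rats were compared, 0.0146% for KM and “0” rats and 0.110% between “0” and W rats. The smallest adjusted p in the list was 0.257 for Tnfsf10 (KM vs W), 0.231 for Oas2 (KM vs “0”) and 0.157 for Rsad2 (“0” vs W). With the Wald test of DESeq2, 3, 0 and 1 genes had one under 0.05. With edgeR 1 gene did in KM vs W under the replicate block, and 1 did in KM vs W and 1 in “0” vs W without W 4. The share of all genes at this adjusted level is not given for DESeq2, the block or the fits without W 4. Their counts are therefore not read as a result about the list. The 19 genes became 10 without KM 2 (2.18% of all genes were higher in that fit), the 6 became 3 without W 2 (4.51% of all genes called), and the 30 became 18 with the replicate number as a block (11.1% of all genes called). With every rat left out in turn, 16 of the 30 calls held in KM vs W (Bst2, Eif2ak2, Herc6, Ifit1, Ifngr2, Mx1, Oas2, Parp14, Ptpn11, Slfn5, Sp110, Tap1, Tlr3, Tnfsf10, Trex1 and Ube2l6). In KM vs “0” 7 of 19 held (Helz2, Ifit3, Oas2, Parp9, Slfn5, Stat2 and Tlr3), and in “0” vs W 3 of 6 (Ifit1, Ptpn11 and Rsad2). All other calls given here were lost without at least 1 of the rats.

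**Figure D3:**
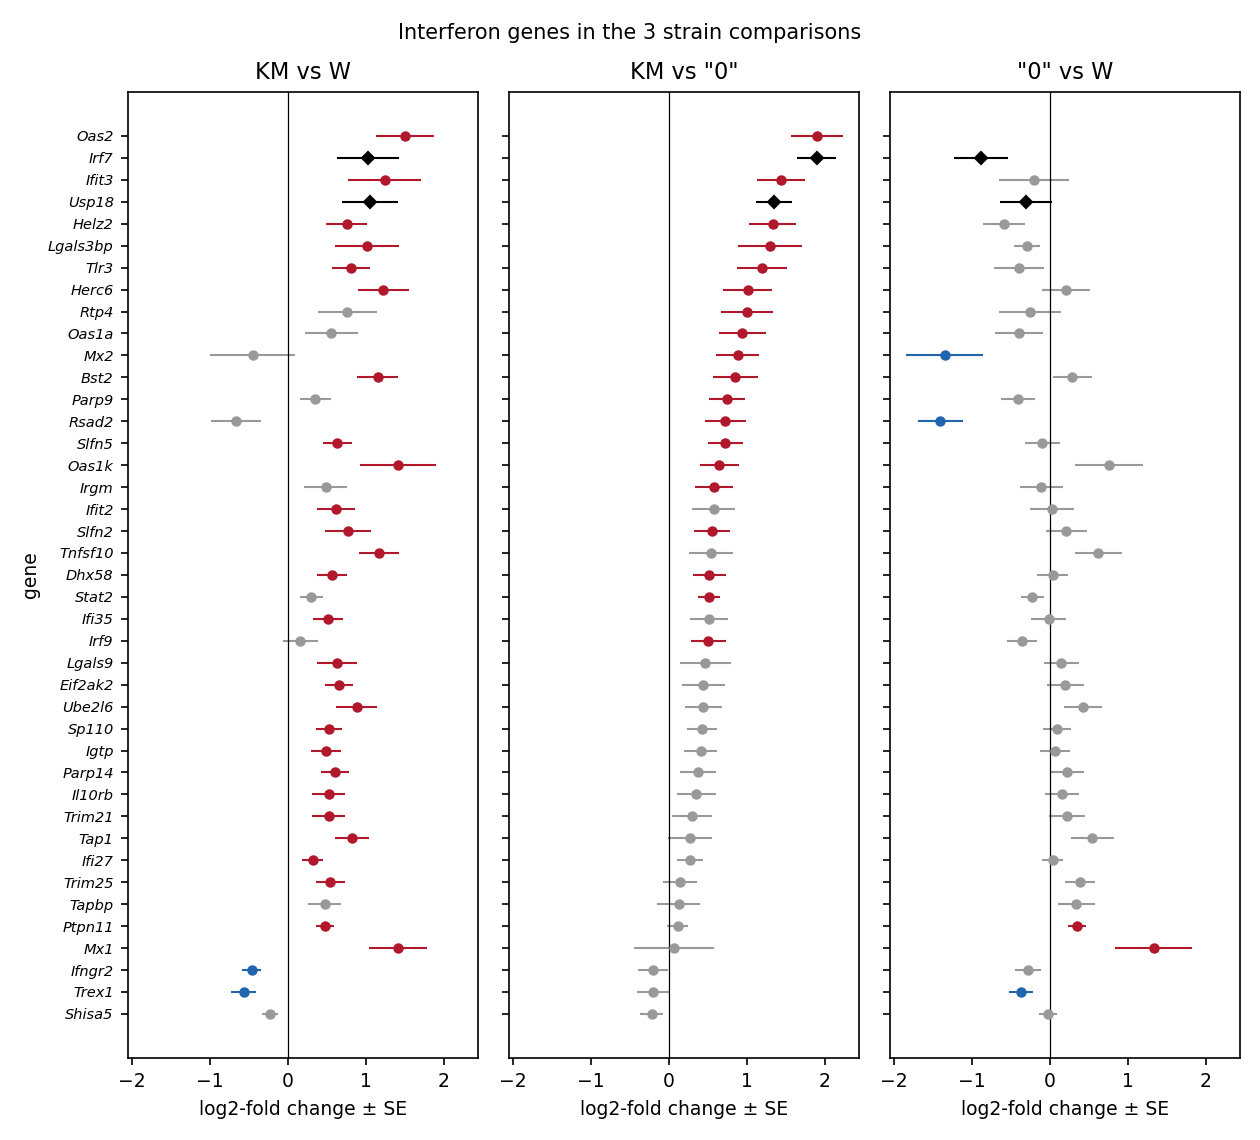
Log2-fold change ± standard error of 41 interferon genes in panels for KM vs W (left), KM vs “0” (middle, which sets the order) and “0” vs W (right). Black diamonds are Irf7 and Usp18, red and blue circles are genes higher and lower in the first strain at an unadjusted p under 0.05, and grey circles did not pass. Points lie mostly to the right of 0 in both KM panels and on both sides of it in the third, where Irf7 lies at −0.87. Ifit1 is left out because it had no read in any “0” rat, and Oas2 has no point in the third panel because its mean there was under 1 CPM.

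Among the receptor and signalling genes, 4 of 12 were matched. Stat2 had 60.5, 53.3 and 51.0 CPM in the KM rats and between 35.3 and 43.6 CPM in the “0” rats, without overlap. It rose in KM vs “0” by 0.52 ± 0.14 (SE) on the log2 scale, with an unadjusted p of 0.00529 and an adjusted p of 0.987 (edgeR). In W rats it had 36.8, 41.6, 53.4 and 46.0 CPM, with W 3 the highest and above KM 2 and KM 3, and KM vs W did not pass the threshold. Its partner Irf9 rose in KM vs “0” as well (log2-fold change 0.51). The interferon gamma receptor chain Ifngr2 fell in KM vs W, by 0.46 on the log2 scale, and Il10rb, a chain shared by the receptors of interleukin 10 and interferon lambda, rose by 0.52.

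Of the sensors and regulatory factors Dhx58 and Tlr3 were matched beside Irf7, and both were higher in KM rats in both comparisons. Tlr3, an endosomal receptor for double-stranded RNA, had 8.23, 8.50 and 10.3 CPM in KM rats, between 2.02 and 5.23 CPM in “0” rats and between 3.58 and 6.53 CPM in W rats. No KM rat overlapped with another strain. In KM vs “0” it rose by 1.20 ± 0.32 (SE) on the log2 scale and in KM vs W by 0.81 ± 0.24. Dhx58, the LGP2 helicase of cytosolic RNA sensing, had 0.52 and 0.57.

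Usp18 acts on Isg15, and 3 genes of the conjugation of Isg15 were matched. Herc6, its ligase in rodents, had 12.3, 9.18 and 6.27 CPM in KM rats, between 3.20 and 6.12 CPM in “0” rats and between 2.73 and 5.37 CPM in W rats. Every KM rat was thus above every other rat, though KM 3 was only just above “0” 4. Herc6 rose by 1.01 ± 0.32 (SE) on the log2 scale in KM vs “0” and by 1.22 ± 0.33 in KM vs W. The conjugating enzyme gene Ube2l6 (0.88) and the ligase gene Trim25 (0.54) passed in KM vs W but not in KM vs “0”, a difference that was not tested.

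Of 66 antiviral effector symbols 26 were matched. In KM vs W 18 were higher and 2 lower, beside 5.58% and 5.33% of all genes, and in KM vs “0” 13 of the 25 tested were higher, beside 2.37%. As for the whole list, their symbols were known because the genes differed in these comparisons, so the counts are not independent support. Oas2, of the same enzyme family as Oas1a, had the largest log2-fold change of the list in KM vs “0”, 1.90 ± 0.33 (SE), at an unadjusted p of 0.000273 and an adjusted p of 0.231 (edgeR). It was low, with 2.47, 2.98 and 1.89 CPM in KM rats, between 0.553 and 0.781 CPM in “0” rats and between 0.537 and 1.41 CPM in W rats. Ifit3, which binds viral RNA complexes, had 4.36, 5.87 and 3.78 CPM in KM rats, between 1.19 and 2.08 CPM in “0” rats, and 0.557, 1.76, 3.10 and 2.45 CPM in W 1 to W 4. As with Irf7 and Usp18, W 1 was the lowest and W 3 the highest W rat, here below every KM rat. Oas1a had 2.96, 4.08 and 2.48 CPM in KM rats and 1.43, 1.99, 3.28 and 1.88 CPM in W 1 to W 4, with W 3 above KM 1 and KM 3. Helz2, a coactivator gene, and Bst2, whose product tethers budding virus, were higher in KM rats in both comparisons, at 1.33 and 0.85 on the log2 scale in KM vs “0”. The other effectors that passed in KM vs W were Oas1k (1.42), the death ligand gene Tnfsf10 (1.17), Lgals3bp (1.02), Slfn2 (0.77), the double-stranded RNA kinase gene Eif2ak2 (0.65), Slfn5 (0.64), Lgals9 (0.63), Ifit2 (0.62), Parp14 (0.60), Sp110 (0.53), Trim21 (0.53), Ifi35 (0.52) and Ifi27 (0.32), as log2-fold changes. Those in KM vs “0” were Lgals3bp (1.30), Rtp4 (1.01), Oas1a (0.94), Mx2 (0.89), Parp9 (0.75), Slfn5 (0.72), Oas1k (0.65) and Slfn2 (0.55).

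Some effectors did not share the order of Irf7 and Usp18. Rsad2, the gene of the antiviral enzyme viperin, had its highest mean in W rats. These had 14.6, 9.05, 10.95 and 21.5 CPM, against 5.30, 4.66, 4.30 and 6.96 CPM in “0” rats, without overlap. The KM rats had 7.73, 11.5 and 7.33 CPM, with KM 2 above W 2 and W 3, and KM vs W did not pass the threshold. Rsad2 fell in “0” vs W by 1.40 on the log2 scale (SE 0.29), at an unadjusted p of 0.000648 and an adjusted p of 0.157 (edgeR), while it was 0.73 higher in KM than in “0” rats. Mx2, of the dynamin-like antiviral GTPases, had 11.9, 19.9 and 15.7 CPM in KM rats, between 6.51 and 12.5 CPM in “0” rats and 4.77, 29.2, 18.2 and 34.5 CPM in W 1 to W 4. W 1 was below and the other W rats were above all “0” rats, and in “0” vs W Mx2 fell by 1.34 on the log2 scale (SE 0.49). Mx1 had 3.21, 4.68 and 2.36 CPM in KM rats and between 0.843 and 1.91 CPM in W rats, and rose by 1.41 ± 0.38 (SE) on the log2 scale, but “0” 2 alone had 6.75 CPM against 1.66 to 2.76 in the other “0” rats. Ifit1 had 36, 50 and 77 reads in W 1, W 2 and W 3 and 0 reads in W 4, 0 reads in each “0” rat and in KM 1 and KM 2, and 1 read in KM 3. Its mean level was at least 52.9-fold lower in “0” than in W rats when 3 counts over the “0” group are taken as the floor, with W 4 at 0 as well. With Ifit1 at this bound the median of the list in “0” vs W was still 0.04. Trex1, a DNase that restrains interferon induction, was lower in KM than in W rats (−0.56) and lower in “0” than in W rats (−0.37). Members of the Oas, Mx, Ifit, Slfn and RT1 families have close copies in the rat genome, between which the counting could have split reads. A strain variant can lower the mapping of reads of any gene, Irf7 and Usp18 included. Neither was measured here, and the values of these families may be less certain for the first reason.

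The remaining lists were short. Of the feedback inhibitors other than Usp18 only Ptpn11, a phosphatase of many receptor pathways, was matched, with log2-fold changes of 0.48 in KM vs W and 0.36 in “0” vs W. Tap1, the peptide transporter of class I antigen presentation, rose in KM vs W (0.83). The interferon-inducible GTPase gene Igtp rose in KM vs W (0.49), and Irgm rose against “0” rats (0.59).

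**Figure D4:**
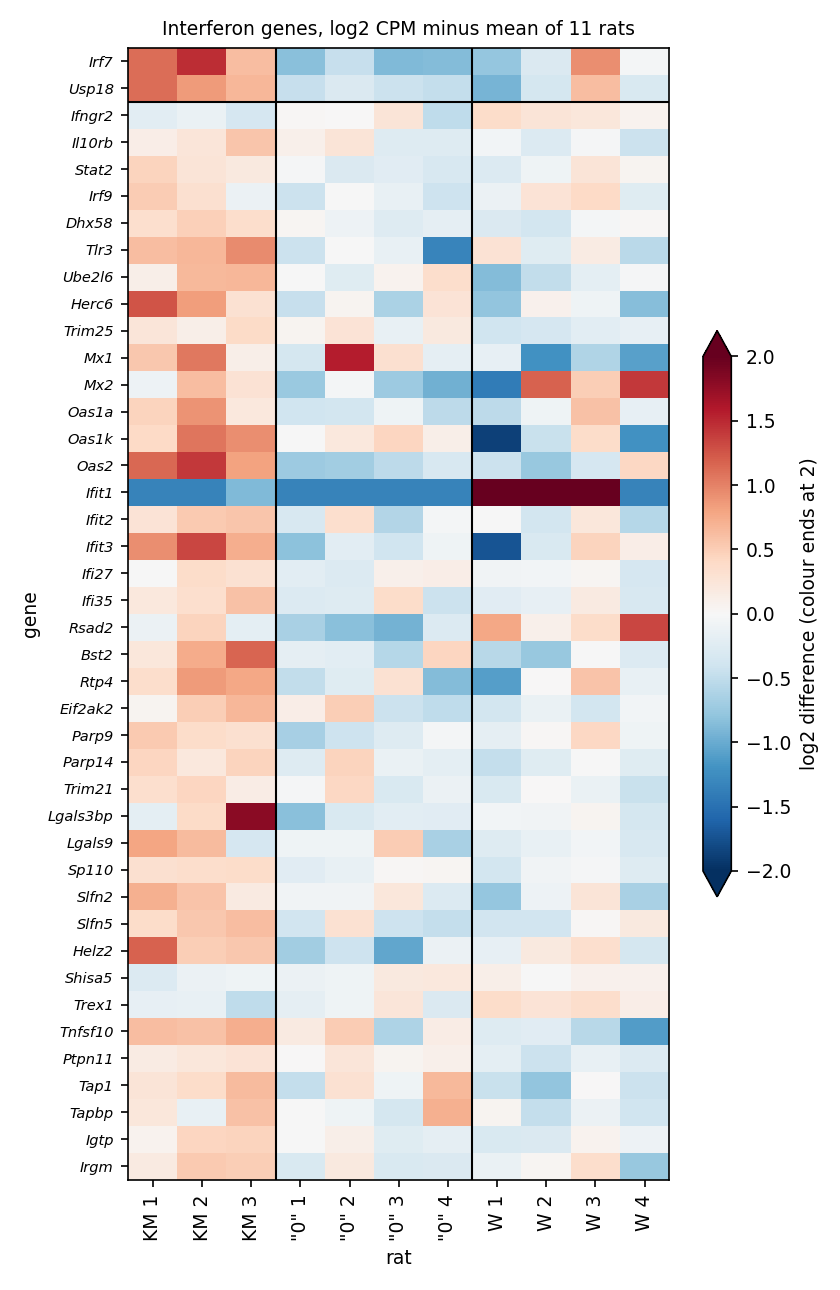
Log2 CPM minus the mean of all 11 rats for Irf7 and Usp18 (top) and the 40 other interferon genes, 1 column per rat, with red above and blue below the mean and the colour ending at 2. The KM columns are red for most genes, Ifit1 is above its mean in W 1, W 2 and W 3 only, and Irf7, Usp18, Oas1a and Ifit3 share a blue W 1 and a red W 3.

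The rat W 3 was singled out after its values were seen. It was the highest of the 4 W rats in 23 of the 40 other interferon genes (57.5%) and the lowest in 0, whereas over all 13694 genes with a mean of at least 1 CPM it was the highest in 22.6% and the lowest in 26.4%. The median difference of the 40 genes in W 3 from the other W rats was 0.25 on the log2 scale, against −0.01 over all genes. W 1 was the lowest W rat in 15 of the 40 genes, against 16.1% of all genes, and W 4 in 16, against 33.3%. Among “0” rats, “0” 2 was the highest in 15 genes (37.5%, against 20.5% of all genes) and had the highest Irf7 and Usp18 of its strain. Among KM rats, KM 3 was the highest in 19 (47.5%, against 39.7% of all genes), although it had the lowest Irf7 and Usp18 of its strain. KM 2 was the highest in 14 (35.0%, against 21.5%) and KM 1, with the highest Usp18 of all rats, in 7 (17.5%, against 38.8%).

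**Figure D5:**
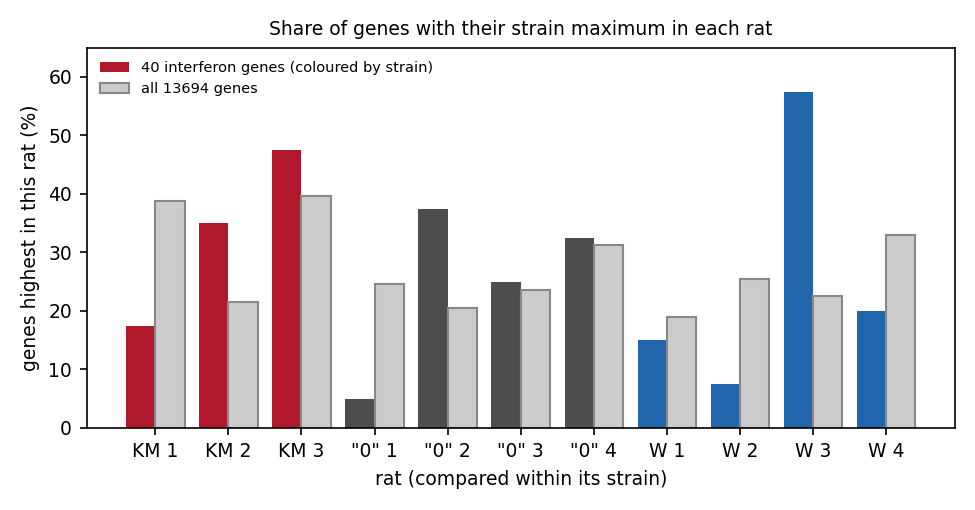
Share of genes that had their strain maximum in each rat, in percent, for the 40 other interferon genes (coloured bars) and for all 13694 genes (grey bars). Within W the coloured bar of W 3 reaches 57.5% beside a grey bar of 22.6%.

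Markers of other cell types were examined beside these values, as far as their symbols could be matched. In bulk tissue fewer cells of a type and less RNA per cell cannot be told apart. Of 16 microglia markers 3 were matched (Tmem119, C1qc and Ctss, the last the most abundant), and their summed level was 186, 183 and 170.5 CPM in KM rats, 211, 210, 279 and 279 CPM in “0” rats and 159, 178, 188 and 159.7 CPM in W rats. This sum was highest in the “0” rats through Ctss, with means of 206 CPM in “0”, 140 CPM in KM and 132 CPM in W rats. The mean of Tmem119 was highest in KM rats, at 24.7 CPM against 19.7 CPM in “0” and 17.5 CPM in W rats. That of C1qc was highest in W rats, at 21.5 CPM against 18.8 CPM in “0” and 15.0 CPM in KM rats. Within the list Tmem119 was higher (log2-fold change 0.49) and C1qc lower (−0.52) in KM than in W rats. Of 13 markers of lymphocytes and other leukocytes Ptprc and Cd4 were matched, the latter the more abundant, with a sum of 15.6, 12.5 and 9.10 CPM in KM rats, 13, 15.1, 22.3 and 17.4 CPM in “0” rats and 7.88, 7.97, 10.1 and 11.8 CPM in W rats. Ptprc, the common leukocyte antigen, was higher in KM than in W rats (log2-fold change 1.16, unadjusted p = 0.0114, adjusted p = 0.360 with edgeR). In KM vs “0” Ptprc did not pass (0.59). Cd4 was lower in KM than in “0” rats (−0.71) and higher in “0” than in W rats (0.88), and did not pass in KM vs W (0.18). Of 7 markers of perivascular macrophages and monocytes only Lyz2 was matched, with 19.6, 18.6 and 32 CPM in KM rats, 6.06 to 21.8 CPM in “0” rats and 11.6 to 21.1 CPM in W rats. The 2 endothelial markers, led by Flt1, summed to 152 to 167 CPM in KM, 142 to 169 CPM in “0” and 105 to 135 CPM in W rats, and the 2 of meninges and pericytes, led by Rgs5, to 42.6 to 56.5, 44.4 to 64.1 and 33.5 to 42.3 CPM. The 4 astrocyte markers, led by Gfap, summed to 3161 to 3781 CPM in KM, 2579 to 3396 CPM in “0” and 2514 to 2940.4 CPM in W rats. The members of this sum moved in different directions. In KM vs W Gfap was higher (log2-fold change 0.62), whereas Aldh1l1 (−0.46) and the gap junction gene Gja1 (−0.46) were lower in KM rats. In KM vs “0” S100b was higher (0.78), with 1293 to 1763 CPM in KM rats and 657 to 1025 CPM in “0” rats and no overlap, and Aldh1l1 was lower (−0.48). None of the matched markers was at 0 in every rat. No marker of plasmacytoid dendritic cells, neurons, forebrain or cerebellum was matched. Of 7 markers of the dorsal midbrain only Pou4f1 was, so the labelled tissue could not be checked on most of its markers. Pou4f1 was low, with 0.0822, 0.170 and 1.18 CPM in KM 1, KM 2 and KM 3, from 1, 2 and 20 reads. The reads of KM 1 and KM 2 are below the floor of 3 counts. It had 0.237 to 2.08 CPM in “0” rats and 0.847 to 2.76 CPM in W rats. In KM vs W it passed as lower (log2-fold change −1.78), and in KM vs “0” it did not pass (−1.50). Whether this reflects the tissue taken was not tested. The part of these cell types in the levels of Irf7 and Usp18 was not tested.

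KM 3 stood apart through the choroid plexus, the tissue of the ventricles that makes cerebrospinal fluid. The 6 matched of 8 such markers summed to 6963 CPM in KM 3, most of it Ttr, and to between 18 and 68.3 CPM in all other rats, with W 3 at 68.3 and KM 2 at 66.7 CPM. KM 3 had the lowest Irf7 and Usp18 of the KM rats. Without it the log2-fold changes of KM vs “0” were 2.11 for Irf7 and 1.48 for Usp18, and those of KM vs W 1.23 and 1.17, so both were as large without this library. Without KM 3, 15 of the other interferon genes were higher in KM vs “0”, beside 4.49% of all genes in the same fit, and 20 in KM vs W, beside 5.86%. Lgals3bp, a secreted interferon-inducible glycoprotein, had 92.4 CPM in KM 3 against 22.9 and 34.4 CPM in KM 1 and KM 2, and without KM 3 it no longer passed in either KM comparison (log2-fold changes 0.22 vs W and 0.52 vs “0”). Of 9 erythrocyte symbols 3 were matched, with Hba-a2 the most abundant. Their sum ran from 2513 CPM in W 3 to 6623 CPM in W 4, from 1389 to 2688 CPM in KM and from 1116 to 1709 CPM in “0” rats. W 3 thus had the lowest erythrocyte sum of the W rats. In KM vs “0” Hba-a2 (log2-fold change 0.64 for its more abundant identifier) and Alas2 (0.73) passed as higher, and Slc4a1 (0.53) did not pass. In KM vs W the same log2-fold changes were −0.76, −0.83 and −2.04, and of these only Slc4a1 passed. The less abundant identifier of Hba-a2 passed in both, at 0.65 in KM vs “0” and −1.07 in KM vs W. In “0” vs W all passed as lower, Hba-a2 at −1.40 and −1.73, Alas2 at −1.57 and Slc4a1 at −2.57. The part of erythrocytes in the levels of Irf7 and Usp18 was not tested. In “0” 3 the 10 genes with most reads took 29.2% of all reads, against 7.94% to 19.0% in the other rats, and its Irf7 (4.74 CPM) was level with that of “0” 4 (4.75 CPM).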

How the data were processed

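RNA of the corpora quadrigemina was sequenced by the authors as directional poly(A)-enriched libraries, 1 per rat. According to the paper's methods and the submitters' processing notes, reads were trimmed with Trimmomatic, mapped with STAR to Rnor_6.0 and counted per gene with HTSeq. Versions, annotation release and strand setting are not given in the sources used here. The authors deposited raw read counts per Ensembl gene without normalization. Reads outside genes (16.5% to 22.7%) and on several genes (1.44% to 2.36%) were deposited as totals and left out.

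Counts were fitted with edgeR 4.0.16 (on limma 3.58.1) and DESeq2 1.42.0 under R 4.3.3, and tables and figures were made with Python 3.11.15. Only the rats of the 2 strains compared entered a fit. It used TMM scaling and the QLF test of edgeR in its legacy form, the test the authors name, for genes averaging at least 1 CPM. Calls used an unadjusted p under 0.05, with Benjamini-Hochberg values over all genes tested. Log2 CPM used a prior count of 2. The scripts were tested on simulated data.

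Symbols came from the identifier and symbol columns of the paper's supplementary table, which name 1763 identifiers. Its fold changes and p-values were not used. The genes named were Irf7 and Usp18, every other listed interferon gene past the threshold, the 5 genes most like each by Pearson's r, and the most abundant gene of the marker lists that bear on these values. Both genes, the lists and the tests were chosen with earlier results of these data known. The RefSeq table (GRCr8) lists 0 other genes overlapping Irf7 or Usp18. Alternatives were DESeq2's size factors and Wald test, no filter, all 11 rats in 1 fit, the replicate block, each rat left out in turn and, for log2 CPM, a prior count of 0.5. Some listed items are not reported here.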

Additional observations from a re-analysis of the deposited data

Results flagged for a closer look

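In 83 groups of 4 rats (Irf7, Usp18 and the 40 other interferon genes in “0” and in W rats), 6 had a highest or lowest rat far from the other 3 by Dixon's criterion at the 95% level, where chance alone gives about 1 in 20, so that their number is near that of chance. The gap is used here only to pick values to list, and for Irf7 and Usp18, which were chosen from these values, it is no test. Irf7 had 6.37 CPM in “0” 2 and 4.74 to 4.90 CPM in the other “0” rats. “0” 2 was also the rat listed in Parp14 (9.98 CPM, next 6.61), in Slfn5 (17.8 CPM, next 11) and in Irgm (5.23 CPM, next 3.71). Ifi35 had 10 CPM in “0” 3, with the next rat at 6.46. Lgals3bp had 14.6 CPM in “0” 1, below 21.3 to 22.6 in the others. No group of W rats met the criterion. The cause was not tested.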

How the results depend on the processing

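In KM vs W the log2-fold changes of Irf7 and Usp18 moved most when single rats were left out. Without W 3 both moved there by more than their standard errors of 0.39 and 0.36. Leaving out each rat gave 0.78 to 1.47 (Irf7) and 0.86 to 1.44 (Usp18) in KM vs W, 1.67 to 2.11 and 1.22 to 1.48 in KM vs “0”, and −1.08 to −0.43 and −0.50 to 0.09 in “0” vs W, where the sign of Usp18 turned without W 3. The number of other interferon genes called ranged from 21 to 32, 10 to 20 and 3 to 7 in these comparisons, with the values of 10 reached without KM 2 and of 3 without W 2. The r of the deviations ranged from 0.743 (without W 3) to 0.983. The replicate number as a block gave 18 genes in KM vs W in place of 30, 13 in place of 19 in KM vs “0” and 5 in place of 6 in “0” vs W. The share of all genes called under this block is given for KM vs W only (11.1%). With this block the log2-fold changes were 1.12, 1.83 and −0.74 for Irf7 and 1.11, 1.33 and −0.19 for Usp18. Rats with the same number are different animals, and the titles do not say what the number stands for. Their deviations correlated across genes between −0.579 and 0.513. Whether the number marks anything that these rats share cannot be told from these values. Fitting all 11 rats together gave 30, 18 and 9 genes. Where no share of all genes is given for a fit, as here, its count is not read as a result about the list. Of the 30, 19 and 6 genes called, 16, 7 and 3 passed with every rat left out in turn, and none changed sign under any alternative run. The cause of these shifts was not tested. Usp18 counts of 24 to 103 reads limit its precision within strains.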
